A study of Mus musculus with 16 samples.

Results

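Serotonin receptor genes were followed across 16 libraries of mouse brain mRNA. The genes were 10 named members of the family (Htr1a, Htr1b, Htr1d, Htr1f, Htr2a, Htr2c, Htr3a, Htr4, Htr5a and Htr7), found by symbol among the 38924 gene IDs of the deposited tables. All 10 were found once each and all passed the filter on low counts. They were taken by name, not by a threshold on a measured value, but with earlier results of these data known. On build mm10, Htr1a lies at chr13:105443639-105448122 and Htr2a at chr14:74640840-74709494, both on the plus strand, and Htr2c at chrX:146962513-147197277.

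The libraries fall into 4 groups of 4. They are wild type (WT) mice left naive, WT mice given CFA, and the same treatments in mice whose genotype label is RGS4 KO. CFA is not spelled out in the labels; in pain research it commonly stands for complete Freund's adjuvant, which is injected to cause lasting inflammation. Each library pooled thalamus punches from both sides of a pair of mice, so the spread between libraries is that between pools. The series text describes a floxed Rgs4 allele and an adeno-associated virus carrying Cre, aimed at the ventral posterolateral thalamus, whereas the sample labels give only the genotype. The age, the dose and time of CFA, the promoter that drives Cre and whether WT mice received virus could not be read from the labels. The labels call the mice female and the protocol calls them male. Xist, the transcript of the inactive X chromosome, lay between 559.7 and 750.1 CPM (gene counts per 1000000 counts of the library, scaled between libraries by TMM factors) in the 16 libraries.

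Serotonin is released in the forebrain by neurons of the raphe nuclei and acts on receptors of several classes. Htr1 and Htr5 receptors couple to Gi/o proteins, which lower cyclic AMP and open GIRK potassium channels; Htr2 receptors couple to Gq and phospholipase C; Htr4, Htr6 and Htr7 couple to Gs and raise cyclic AMP; Htr3a forms an ion channel. RGS4 shortens the active state of Gi/o and Gq proteins, and so acts on signals of those classes. Htr1a is also the autoreceptor on the cell bodies of serotonin neurons themselves, and Htr1b and Htr1d are autoreceptors on their terminals.

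The tissue check bears on every value below. The tables held between 18.1 and 78.8 times 1000000 gene counts per library. Depth was uneven between groups. In the same unit, medians were 40.2 in WT naive, 26.2 in naive libraries labelled KO, 48.05 in WT CFA and 40.85 in CFA libraries labelled KO. Rgs4, the targeted gene, was not called lower in libraries labelled KO: it stood at 80.9 CPM in naive WT and 81.3 CPM in naive libraries labelled KO (n = 4 each, exact two-sided permutation p = 0.886), and at 89.3 and 84.1 CPM after CFA (exact permutation p = 0.229). These libraries are therefore named by their label. Genes that define serotonin neurons were abundant in tissue labelled as thalamus. Tph2, the enzyme that starts serotonin synthesis in neurons, ranged from 58.9 to 646.2 CPM over the 16 libraries, and the serotonin transporter gene Slc6a4 from 42.1 to 513.9 CPM. The labelled tissue's relay markers were uneven: Slc17a6, the glutamate transporter of subcortical neurons, and Tcf7l2 reached medians of 462.7 and 137.99 CPM, while Prkcd and Tnnt1, which mark sensory relay nuclei, had medians of 13.9 and 0.898 CPM and Gbx2 did not pass the filter. The tissue is called here by its label, and the summed level of 16 serotonin neuron genes is given beside the results it moves with. In bulk tissue, fewer cells of a type and less RNA per cell cannot be told apart.

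For reference, the stretches before the start sites of Htr1a and Htr2a are printed, the receptor genes on which the results turn, beside that of Tph2, with which Htr1a moved. They come from RefSeq (build GRCm38.p6), read 5′ to 3′ on the gene's strand, and stop before the first annotated start in RefSeq or GENCODE. Capitals mark GGAA on either strand (TTCC when read on the strand shown), the core bound by ETS factors; Fev, the ETS factor that sets the identity of serotonin neurons, is one of them.
Htr1a, plus strand, chr13:105443443-105443638: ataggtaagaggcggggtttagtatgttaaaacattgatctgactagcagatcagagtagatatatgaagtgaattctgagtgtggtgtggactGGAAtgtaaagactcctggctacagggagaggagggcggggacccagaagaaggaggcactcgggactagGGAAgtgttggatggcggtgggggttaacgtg
Tph2, minus strand, chr10:115185023-115185272: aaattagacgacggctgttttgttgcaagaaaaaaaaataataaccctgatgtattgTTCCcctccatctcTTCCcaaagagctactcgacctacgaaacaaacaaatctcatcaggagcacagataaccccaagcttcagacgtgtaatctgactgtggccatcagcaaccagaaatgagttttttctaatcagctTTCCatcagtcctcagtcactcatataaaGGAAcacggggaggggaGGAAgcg
Htr2a, plus strand, chr14:74640624-74640839: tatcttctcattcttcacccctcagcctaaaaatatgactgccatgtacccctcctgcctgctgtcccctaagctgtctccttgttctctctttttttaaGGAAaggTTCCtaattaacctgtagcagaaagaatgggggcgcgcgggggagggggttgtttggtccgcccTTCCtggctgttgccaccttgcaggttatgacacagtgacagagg
The Htr1a stretch held GGAA at 2 positions, that of Tph2 at 5 and that of Htr2a at 3. This core is common: 88.7% of 32851 promoter stretches cut to the length of the Htr1a stretch hold it on either strand. The longer ETS motif GGAAGT, which contains the core, occurred once in the Htr1a stretch, at the GGAA nearer the start site, where 14.2% of stretches of that length hold it. It was not found in these windows of Tph2 or Htr2a, where 19.7% and 16.1% of stretches of the same lengths hold it. Of the 10 receptor genes, 8 had an entry in the RefSeq promoter table.

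Levels between genes were compared per length, as RPKM, which is CPM per 1000 bases of the union of the exons in GENCODE M21. Htr2c, the Gq-coupled receptor that is also known from choroid plexus, was the highest at 26.5 ± 1.15 RPKM (SD over 16 libraries). It made up 43.8% of the summed mean RPKM of the 10 genes, and its mean was 2.81-fold that of the next gene. The Gs-coupled Htr7 followed at 9.44 ± 0.444 RPKM and Htr1a at 8.9 ± 1.32 RPKM, and the ranges of these neighbours overlapped. Htr1b stood at 5.74 ± 0.34 RPKM and Htr5a at 3.42 ± 0.142 RPKM, each apart from its neighbours in every library. Htr1d (2.07 ± 0.289 RPKM), Htr2a (1.65 ± 0.24 RPKM) and Htr4 (1.62 ± 0.117 RPKM) overlapped one another in that order. The lowest were Htr3a at 0.634 ± 0.268 RPKM and Htr1f at 0.534 ± 0.0708 RPKM, also with overlapping ranges. Of the family members outside the 10, Htr6 (1.27 RPKM) and Htr5b (1.09 RPKM) lay between Htr4 and Htr3a, Htr2b stood at 0.1 RPKM, and Htr3b, the second channel subunit, was at 0.0108 RPKM with at most 2 counts in a library. Choroid plexus could give Htr2c counts, so its markers were examined. The summed level of 12 such genes lay between 67.1 and 93.3 CPM. Prlr and Otx2 gave most of it, at means of 49.4 and 14.6 CPM, and Otx2 is also on the midbrain list used below. The next gene, Clic6, had a mean of 5.22 CPM, and Kcnj13 did not pass the filter. Ttr, the most abundant transcript of that tissue, was at 1.85 CPM or less in every library. Over the 16 libraries Htr2c and the choroid plexus sum, both as log2, had a Pearson r of 0.25. Its permutation p was 0.351, or 0.793 when adjusted over 130 relations of 10 genes with 13 lists. Their Spearman rho was 0.27 (permutation p = 0.303, adjusted 0.73). The part of choroid plexus in the Htr2c level was not tested beyond these values.

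**Figure D1:**
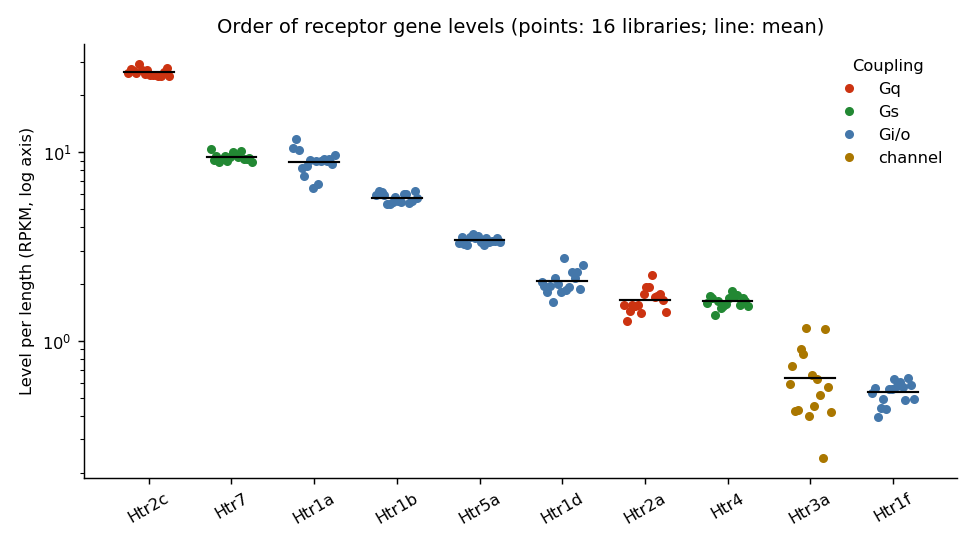
Level per length (RPKM, log axis) of the 10 receptor genes, ordered by mean; points are the 16 libraries, the line is their mean and colours give the coupling. Htr2c lies above all others at a mean of 26.5 RPKM, and Htr3a spreads most between libraries.

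The genes differed in how much they varied between libraries. Htr5a, Htr2c, Htr7 and Htr1b had coefficients of variation over the 16 libraries of 4.14%, 4.33%, 4.7% and 5.92%. Htr4 followed with 7.21%, and Htr1f, Htr1d, Htr2a and Htr1a had 13.3%, 14%, 14.5% and 14.9%. Htr3a varied most at 42.3%, from 0.496 to 2.43 CPM, on 24 to 103 counts per library. Htr1f was counted almost as thinly (26 to 98 counts), so counting error is a larger part of its spread than for Htr2c with 4367 to 18624 counts.

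**Figure D2:**
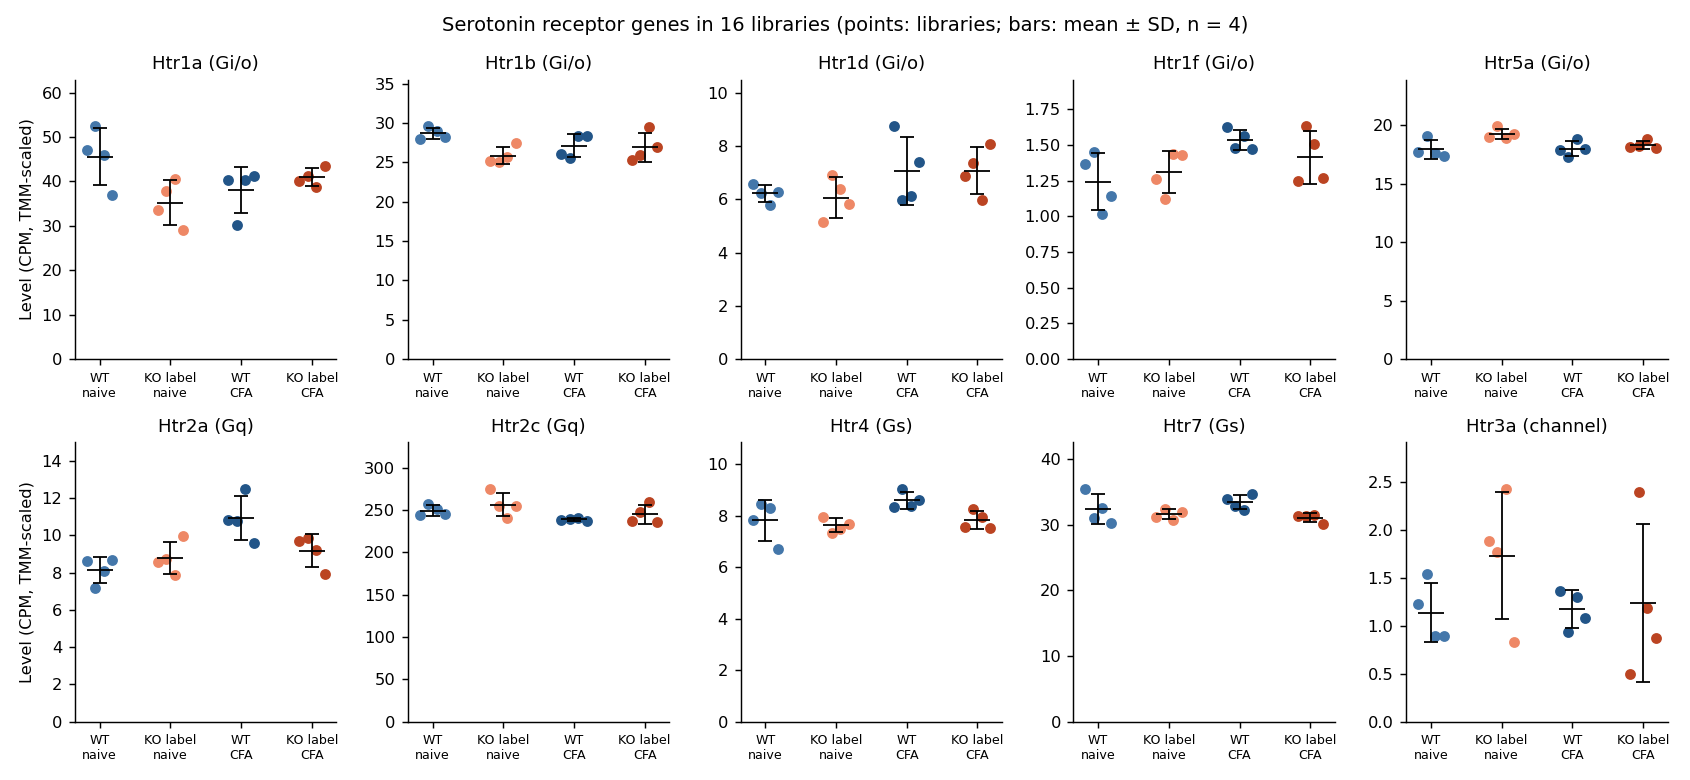
Level (CPM) of each receptor gene in each library, by group (points: libraries; bars: mean ± SD, n = 4; every axis starts at 0). Htr2a is higher in each WT CFA library than in each WT naive library, and naive libraries labelled KO reach lower Htr1a levels than naive WT.

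The first question was whether CFA changed the receptor genes in WT. One of the 10 did by edgeR's quasi-likelihood test with Benjamini-Hochberg adjustment over 18350 genes, against a background of 2.23% of all genes called in this comparison and 1.42% called higher. Htr2a, the Gq-coupled receptor to which psychedelic drugs bind, rose. Its levels in WT naive libraries 1 to 4 were 8.64, 7.18, 8.06 and 8.67 CPM, and in WT CFA libraries 9 to 12 they were 10.8, 10.8, 12.5 and 9.6 CPM. Every CFA library lay above every naive one. The change was 1.35-fold (95% interval 1.18 to 1.53; log2 change 0.43, SE 0.09, adjusted p = 0.0151). The call was lost without WT naive library 2 (adjusted p = 0.0638), without WT CFA library 11 (adjusted p = 0.0613) and with all libraries thinned to the shallowest (log2 change 0.32, adjusted p = 0.232).

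The summed level of 10 oligodendrocyte lineage genes moved with Htr2a. It lay between 6661 and 8568 CPM in WT naive and between 8443 and 9583 CPM in WT CFA libraries. Over the 16 libraries Htr2a and this sum, both as log2, had a Pearson r of 0.73 (permutation p = 0.00114, adjusted over 130 relations of 10 genes with 13 lists 0.0296) and a Spearman rho of 0.79 (permutation p = 0.0004, adjusted 0.013). Without the 2 libraries farthest from the median of the sum r was 0.72, and with group means removed it was 0.78. With the sum as a covariate in the edgeR model, the CFA change of Htr2a in WT was 0.29 on the log2 scale. It was no longer called (unadjusted p = 0.00161, adjusted p = 0.072). Averaged over genotypes, the CFA change of Htr2a was 0.20 with this covariate and called (adjusted p = 0.031). Without the covariate that average was 0.24 and not called (adjusted p = 0.0592). With the serotonin neuron sum as a covariate the CFA change of Htr2a in WT was 0.35 (adjusted p = 0.111). Htr2a also ran opposite to the sum of 9 habenula markers (r = -0.74, permutation p = 0.00099, adjusted 0.0296; rho = -0.82, permutation p = 0.00017, adjusted 0.00737), with r = -0.78 without the 2 farthest libraries. The habenula sum was 145.8 to 175 CPM in WT naive and 139.2 to 153.2 CPM in WT CFA libraries. Most of it was Tac1, at a mean of 92.9 CPM over the 16 libraries, where the sum had a median of 154.8 CPM. Nwd2 and Pou4f1 followed at means of 23.8 and 22.4 CPM. Gpr151, Chrnb4 and Tac2 had means of 1.31, 0.735 and 2.15 CPM, and the list also holds the receptor gene Htr5b. The sum of 11 midbrain genes separated the same groups, at 88.1 to 136.4 CPM in WT naive and 336.1 to 493.6 CPM in WT CFA libraries. Most of that separation lay in the neuropeptide gene Cartpt, at 33.2 ± 16.7 CPM in WT naive and 276.5 ± 33.3 CPM in WT CFA libraries; Cartpt and Ucn, also a neuropeptide gene, were the 2 of 11 called, and the median log2 change of the list was 0.27. Its relation with Htr2a over the 16 libraries had r = 0.48 and rho = 0.40 (permutation p = 0.0588 and 0.127, adjusted 0.306 and 0.591), with r = 0.19 without the 2 libraries farthest from its median and r = -0.43 with group means removed. The part of these cell populations in the Htr2a change was not tested beyond these values.

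The other 9 receptor genes were not called in WT after CFA; 3 of the 10, Htr2a included, had an unadjusted p under 0.05, as did 17.6% of all genes. Htr1a was at 47, 52.4, 46 and 36.9 CPM in the naive libraries and at 40.3, 30.2, 40.2 and 41.1 CPM after CFA, and the groups overlapped (0.831-fold, interval 0.694 to 0.995, adjusted p = 0.272). Htr1f, the receptor of the lasmiditan class of migraine drugs, stood at 1.24 ± 0.2 CPM and 1.54 ± 0.0725 CPM (n = 4 each, adjusted p = 0.243). Its groups did not overlap, nor did those of Htr2c at 249.3 ± 6.16 and 238.8 ± 1.72 CPM (adjusted p = 0.403). With Htr2a that makes 3 of 10 genes with separate groups, where 11.3% of all tested genes had them. For Htr2c the 95% interval of the fold was 0.909 to 1.01. Htr5a (interval 0.942 to 1.07) and Htr7 (0.971 to 1.1) were bounded nearly as closely, whereas that of Htr3a ran from 0.561 to 1.89.

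In libraries labelled KO, CFA gave 0 calls among the 10 genes by edgeR, with 0 at an unadjusted p under 0.05 and 0 by DESeq2. Of all genes, 0.185% were called and 7.81% had an unadjusted p under 0.05. Htr2a was at 8.57, 8.74, 7.89 and 9.96 CPM in naive libraries 5 to 8 and at 9.69, 9.88, 9.21 and 7.93 CPM in CFA libraries 13 to 16. These groups overlapped, and the change was 1.04-fold (interval 0.91 to 1.2, adjusted p = 0.933). The lowest adjusted p among the 10 was that of Htr1d, at 6.07 ± 0.763 and 7.08 ± 0.879 CPM (1.19-fold, interval 0.995 to 1.41, adjusted p = 0.656). Htr5a was the 1 gene with separate groups (19.3 ± 0.439 and 18.3 ± 0.364 CPM, adjusted p = 0.727; 4.29% of all genes had separate groups).

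Whether the CFA response differed by genotype was tested by the interaction. It called 0 of the 10 genes by edgeR, 2 at an unadjusted p under 0.05 and 0 by DESeq2. Of all genes, 0.0654% were called and 9.86% had an unadjusted p under 0.05. The 2 were Htr2a (log2 difference of responses -0.37, SE 0.13, adjusted p = 0.348 by edgeR) and Htr1a (0.50, SE 0.17, adjusted p = 0.374). The Htr2a call in WT and its absence in libraries labelled KO is thus not shown to be a difference between genotypes.

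**Figure D3:**
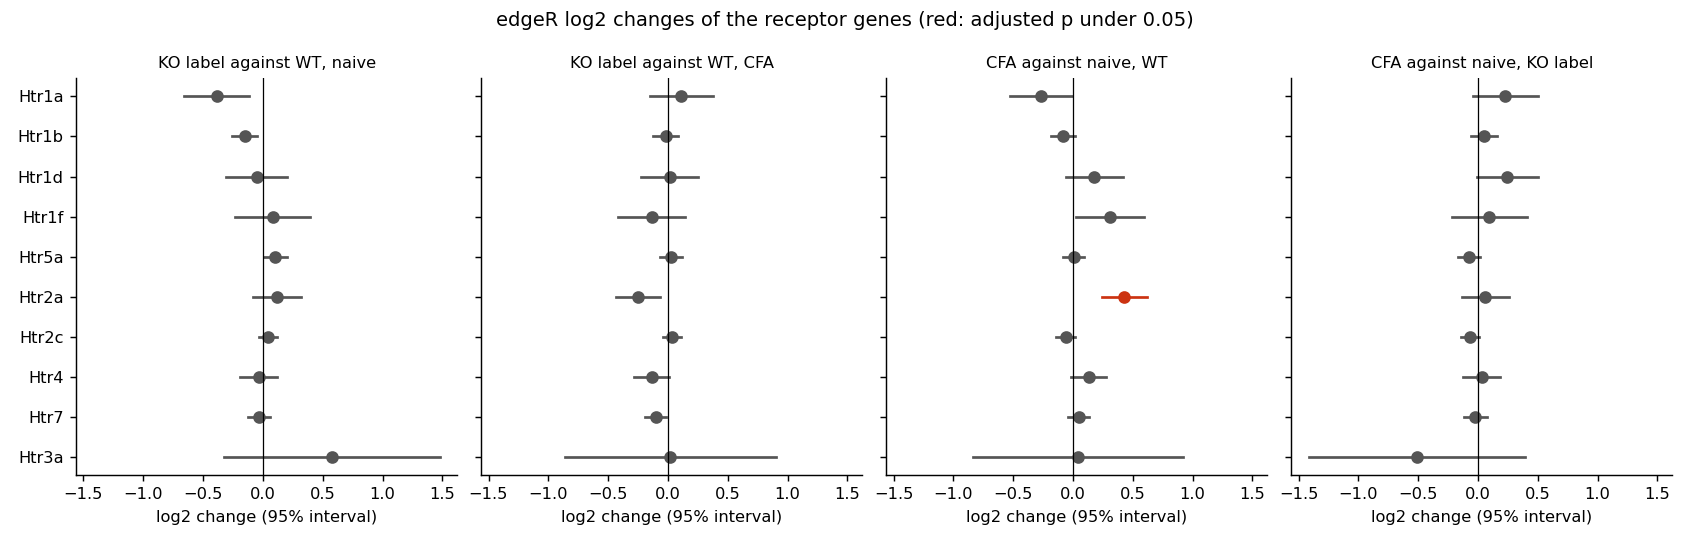
Log2 changes of the 10 receptor genes with 95% intervals in the 4 comparisons of 2 groups (edgeR, 4 libraries per group). Htr2a in WT after CFA is the 1 called value, and the intervals of Htr3a are the widest in each panel.

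The genotype comparison in naive mice asked how libraries labelled KO differed from WT. It called 0 of the 10 genes by edgeR, against a background of 1.45%, with 3 at an unadjusted p under 0.05 (13.8% of all genes). DESeq2 called 1 of the 10 and 459 of all 18350 genes. The DESeq2 call among the 10 was Htr1a (log2 change -0.38, adjusted p = 0.0318). In libraries labelled KO its levels were 33.5, 37.8, 40.6 and 29.1 CPM, against the WT values given above. The 2 groups overlapped, since WT library 4 lay below libraries 6 and 7. By edgeR the log2 change was -0.39 (SE 0.13, 0.766-fold, interval 0.634 to 0.924, adjusted p = 0.176). Htr1b was at 28, 29.6, 29 and 28.2 CPM in WT, against 25.2, 25, 25.7 and 27.4 CPM in libraries labelled KO. It was the 1 gene with separate groups (7.23% of all genes had them), with a fold of 0.9 (interval 0.836 to 0.968, adjusted p = 0.159). In the annotation used here, 18% of the exon bases of Htr1b are shared with the antisense gene D430036J16Rik. The strand setting of the counts was not given, so how reads over those bases were counted is not known. Htr5a stood at 17.9 ± 0.783 CPM in WT against 19.3 ± 0.439 CPM with the KO label (1.07-fold, adjusted p = 0.309). Both this comparison and that of CFA in WT use the WT naive libraries.

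After CFA the genotype comparison called 0 of 10 receptor genes by edgeR, 2 at an unadjusted p under 0.05 and 0 by DESeq2, with 1.6% of all genes called and 12.3% at an unadjusted p under 0.05. Htr2a stood at 10.9 ± 1.19 CPM in WT against 9.18 ± 0.879 CPM with the KO label (0.841-fold, interval 0.739 to 0.957, adjusted p = 0.215). Groups were separate for 2 of the 10 genes, the Gs-coupled Htr7 and Htr4, where 8.03% of all genes had separate groups. Those of Htr6, the Gs-coupled gene outside the 10, overlapped (0.975-fold, adjusted p = 0.951). Htr7 was at 33.9, 32.8, 32.2 and 34.6 CPM in WT, against 31.3, 31.4, 31.5 and 30.2 CPM in libraries labelled KO (0.931-fold, adjusted p = 0.317). Htr4 was at 8.6 ± 0.325 and 7.83 ± 0.349 CPM (0.909-fold, adjusted p = 0.448). Averaged over treatments, the genotypes differed in 0 of the 10 by edgeR (2 at an unadjusted p under 0.05, 0 by DESeq2; of all genes 3.73% were called and 14.3% had such a p). The lowest adjusted p there was that of Htr1b, 0.243. Averaged over genotypes, CFA gave 0 calls by edgeR, with 3 at an unadjusted p under 0.05. Of all genes, 1.81% were called by edgeR and 14.6% had such a p. DESeq2 called 1 of the 10, Htr2a, and 519 of all 18350 genes. By edgeR, Htr2a had a log2 change of 0.24 (SE 0.07, adjusted p = 0.0592). The median log2 change of the 10 genes was 0.0027 for genotype in naive mice, -0.0022 for genotype after CFA, 0.05 for CFA in WT and 0.04 for CFA in libraries labelled KO. Over all tested genes these medians lay between -0.0021 and 0.00019.

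Htr1a stood out among the 10 for how it followed the serotonin neuron genes. The library with the highest sum of these genes, WT naive library 2 at 2235 CPM, had the highest Htr1a level (52.4 CPM). The 3 libraries with the lowest sums, WT CFA library 10 (370.4 CPM) and naive libraries 8 (496.96 CPM) and 5 (608.4 CPM) labelled KO, had the lowest Htr1a levels (30.2, 29.1 and 33.5 CPM). Over the 16 libraries the log2 values had a Pearson r of 0.95 (permutation p = 1e-05, the smallest that 100000 permutations can give; adjusted over 130 relations 0.0013) and a Spearman rho of 0.85 (permutation p = 7e-05, adjusted 0.00455). Without libraries 8 and 10 r was 0.91, and with group means removed it was 0.94. In the middle of the range Htr1a showed no steady rise: WT CFA library 12, with a sum of 1032 CPM, had 41.1 CPM of Htr1a, and naive library 7 labelled KO, with 1513 CPM, had 40.6 CPM. No other receptor gene among the 10 passed adjustment for this sum; the next by size was Htr2a at r = -0.52 (permutation p = 0.0391, adjusted 0.222).

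Htr1a also passed with the sum of a list of 10 hypothalamus genes (r = 0.85, rho = 0.86, permutation p = 5e-05 and 3e-05, adjusted 0.00325 and 0.0039), and by Pearson's r alone with the relay thalamus sum (r = -0.77, permutation p = 0.00055, adjusted 0.0238; rho = -0.68, permutation p = 0.00526, adjusted 0.114) and the habenula sum (r = 0.71, permutation p = 0.00202, adjusted 0.0438; rho = 0.58, permutation p = 0.02, adjusted 0.212). Without the 2 libraries farthest from the median of each sum, r was 0.68, -0.86 and 0.64 in that order. More of the hypothalamus sum (median 22.4 CPM) came from Trh, at a mean of 14.3 CPM, than from the other 9 genes together, and the defining genes Pmch, Hcrt, Avp and Oxt were at 0.272 CPM or less in every library and did not pass the filter. The relay thalamus sum (median 1192 CPM) came mostly from Slc17a6, Calb2 and Tcf7l2, at means of 470.2, 197.2 and 138.5 CPM. Prkcd and Tnnt1 added means of 14 and 1.01 CPM to it. Tac1 made up most of the habenula sum, as given above. In total 6 of the 130 relations passed by Pearson's r, 4 of them for Htr1a and 2 for Htr2a. All these sums were taken from the same 16 libraries, and the genes and lists were chosen with earlier results of these data known. The permutation p-values do not allow for that choice.

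**Figure D4:**
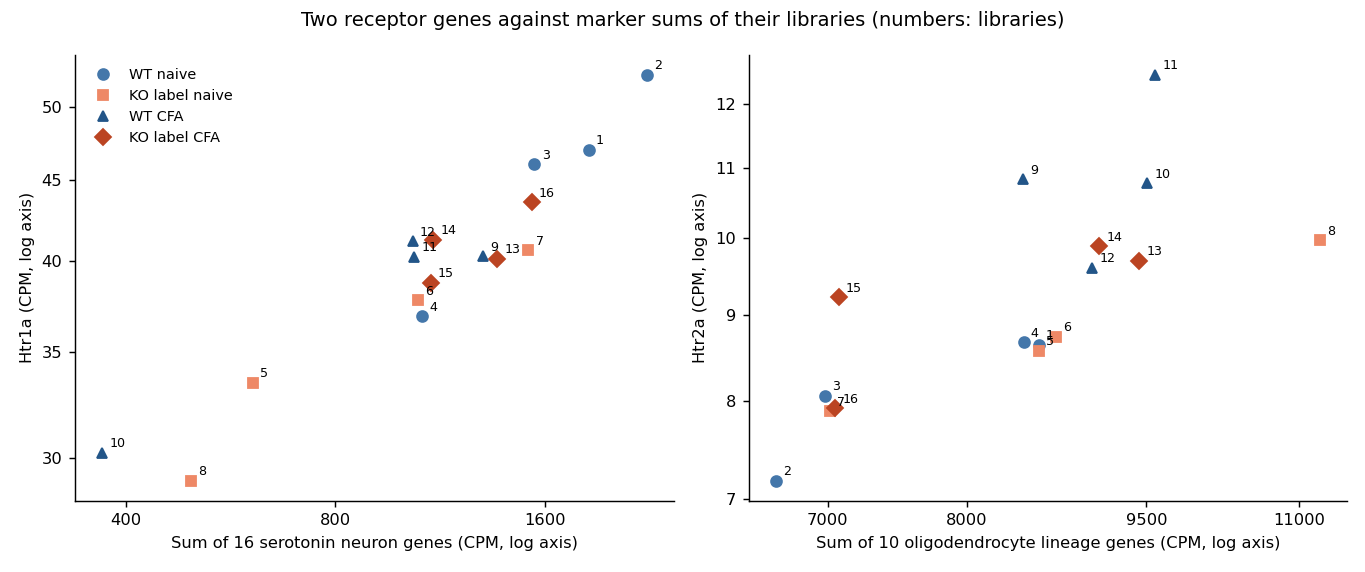
Left, Htr1a against the summed level of 16 serotonin neuron genes; right, Htr2a against the summed level of 10 oligodendrocyte lineage genes (CPM, log axes; points are libraries, numbered). Htr1a is lowest in the 3 libraries with the lowest sums and highest in those with the highest, with little order in between (r = 0.95 on log2 values), and in the right panel WT CFA libraries 9 to 11 lie above libraries of like sums.

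The group medians of the serotonin neuron genes followed the same order of genotypes as Htr1a within each treatment. Their summed level had a median of 1695 CPM in WT naive, 829.3 CPM in naive libraries labelled KO, 1035 CPM in WT CFA and 1234 CPM in CFA libraries labelled KO. The ranges of the 4 groups overlapped, and all WT CFA libraries (370.4 to 1303 CPM) lay below 3 of the 4 WT naive libraries (1064 to 2235 CPM). All 16 genes had a negative log2 change in naive libraries labelled KO (median -0.83, 0 called by edgeR, 5 at an unadjusted p under 0.05, 1 by DESeq2). Of all genes, 1.45% were called by edgeR and 13.8% had such a p. DESeq2 called 459 of all 18350 genes there. All 16 were also negative after CFA in WT (median -0.78), a comparison that shares the WT naive libraries. The other comparisons went the opposite way, with 14 of 16 positive for genotype after CFA (median 0.41) and 15 of 16 for CFA in libraries labelled KO (median 0.51), and 0 called by edgeR or DESeq2 in each (0 and 1 at an unadjusted p under 0.05). After CFA in WT 1 was called, where 2.23% of all genes were and 4 of the 16 had an unadjusted p under 0.05 (17.6% of all genes). It was Maoa, which breaks down serotonin (81.2 ± 4.66 to 72.2 ± 1.72 CPM, n = 4 each, adjusted p = 0.0274). With the serotonin neuron sum as a covariate, the genotype change of Htr1a in naive mice was -0.10 on the log2 scale (adjusted p = 0.659), against -0.39 without it. Its CFA change in WT was 0.0018, against -0.27, and its interaction was 0.05, against 0.50. Without libraries 8 and 10 these 3 values were -0.31, -0.17 and 0.32. The covariate was taken from the same libraries and chosen after seeing the data. The part of serotonin neurons in these Htr1a changes was not tested beyond these values.

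Htr5b, a receptor gene outside the 10 that is known from the habenula and raphe, followed the same sum (r = 0.86, rho = 0.86, as a description outside the 130 relations; r = 0.77 without libraries 8 and 10). It ranged from 1.04 to 3.42 CPM. After CFA its groups were separate by genotype, at 1.04 to 1.79 CPM in WT against 2.19 to 2.73 CPM with the KO label. It was not called (1.6-fold, interval 1.08 to 2.39, adjusted p = 0.297), and 8.03% of all genes had separate groups there. Its WT groups were separate as well (1.82 to 3.36 CPM in naive libraries), with a fold of 0.608 after CFA (adjusted p = 0.175). In that comparison 11.3% of all genes had separate groups. Groups of Htr2b and Htr6, also outside the 10, overlapped in both comparisons.

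The genes most like each receptor gene over the 16 libraries, by Pearson r of log2 CPM, are given as a description. They were picked as the highest among the 18350 tested genes. How high such a pick reaches by chance was not tested. For Htr1a they were Cdyl2 (r = 0.96), the unnamed transcript C130021I20Rik (0.96) and Gchfr (0.96), the feedback regulator of the enzyme that makes the cofactor of serotonin synthesis and a member of the serotonin list. For Htr2a they were Gjc3 (0.91), a gap junction gene of oligodendrocytes, Ppp2r3a (0.89) and Hapln2 (0.89), a link protein of the matrix at myelinated axons. The calcium-signal kinase gene Camk4 (0.85) was among those of Htr5a, the protocadherin gene Pcdh18 (0.87) led for Htr2c, Asb3 (0.87) for Htr7 and Zfp354b (0.86) for Htr1b. Htr1d (0.85), Htr1f (0.83), Htr4 (0.82) and Htr3a (0.81) had no closer gene than these values of r. The gene nearest to Htr3a, which had 24 to 103 counts per library, was Pts, an enzyme of the same cofactor's synthesis. Htr3a had r = 0.11 with the serotonin neuron sum (permutation p = 0.687, adjusted 0.916).

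Signalling genes downstream of these receptors were called at shares near those of all genes. Of 40 genes in 5 lists (Gi/o subunits, Gq subunits with phospholipase C beta, Gs subunits with adenylyl cyclases, GIRK channels, and receptor partners), 1 was called in the genotype comparison after CFA, where 1.6% of all genes were. It was the adenylyl cyclase gene Adcy2, 1 of 11 in its list, which rose from 113.8 ± 4.61 CPM in WT to 130.4 ± 4.79 CPM in libraries labelled KO (n = 4 each, adjusted p = 0.00631). The other 3 comparisons of 2 groups called 0 of the 40 by edgeR and 1 each by DESeq2. Of all genes, edgeR called 1.45% for genotype in naive mice, 2.23% for CFA in WT and 0.185% for CFA in libraries labelled KO. DESeq2 called 459, 712 and 86 of all 18350 genes in that order. At an unadjusted p under 0.05 there were 9 of the 40 for genotype in naive mice (13.8% of all genes), 1 for genotype after CFA (12.3%), 9 for CFA in WT (17.6%) and 6 for CFA in libraries labelled KO (7.81%). The DESeq2 calls were the GIRK channel gene Kcnj3 (1.1-fold by edgeR, adjusted p = 0.089) for genotype in naive mice, Adcy6 (0.919-fold, adjusted p = 0.0843) for CFA in WT and the scaffold gene Mpdz, whose protein binds Htr2c (1.12-fold, adjusted p = 0.139), for CFA in libraries labelled KO. Adarb1, one of the enzymes that edit Htr2c RNA, stood 1.09-fold higher after CFA in WT (adjusted p = 0.128). Median log2 changes of the 40 genes lay at -0.03 for genotype in naive mice, 0.01 for genotype after CFA, -0.01 for CFA in WT and 0.02 for CFA in libraries labelled KO.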

How the data were processed

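Per the labels' protocols, mRNA libraries were made from pooled punches with the TruSeq RNA kit, version 2. The authors deposited raw read counts per Ensembl gene, 1 table per library. The submitters' processing notes name TopHat and DESeq2 with build mm10, without versions here. Annotation release, strand setting and counter settings: not given in the sources used here. The summary lines that end each table (38% to 39.9% of listed reads) were left out. Symbols, positions and exon lengths came from GENCODE M21 of the same build, matched by ID without version (37607 of 38924 IDs), so lengths may differ from those the authors counted on.

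Samples were grouped by title. The filterByExpr filter (minimum count 10) left 18350 genes. TMM scaling and a robust quasi-likelihood fit with 1 mean per group over all 16 libraries were run in edgeR 4.0.16 (R 4.3.3), with 7 contrasts, two-sided, and calls at an adjusted p under 0.05 over all genes. The fit was tested on simulated data. DESeq2 1.42.0 was an alternative; others used its size factors, no filter, only the groups compared, thinned counts, or left out each library in turn. Covariate fits and the fit without libraries 8 and 10, those with the lowest serotonin neuron sums of their groups, were chosen after seeing the data. Correlations used 100000 permutations. The receptor genes and lists were chosen with earlier results of these data known. Named genes are the 10 receptors, Rgs4, list members called or among the 3 lowest p of their list, and the 3 genes most like each receptor; not all are printed. Marker genes, Htr5b and Xist are named for checks.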

Additional observations from a re-analysis of the deposited data

Results flagged for a closer look

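In 2 of 60 groups of 4 libraries, a library stood far from the others by Dixon's ratio; chance alone flags about 1 group in 20, so the flags were no more frequent than chance gives. Htr1a in WT CFA library 10 was at 30.24 CPM, where the other 3 libraries of its group lay between 40.24 and 41.13 CPM; this library also had the lowest serotonin neuron sum of the 16, 370.4 CPM. Htr5b in naive library 7 labelled KO was at 3.422 CPM, where the others lay between 1.219 and 1.384 CPM; its serotonin neuron sum, 1513 CPM, was the highest of its group.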

How the results depend on the processing

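The log2 changes of the 10 genes in 7 contrasts kept their direction and side of the threshold in 1572 of 1650 recomputations; 65 turned in direction, none of them called. No paired analysis was possible because no library number is shared between groups. The cause of the changes below was not tested, except that thinning leaves fewer counts.

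Numbers of genes called moved by over 1.5 times as follows. Thinning gave 168 for genotype in naive, 186 for genotype after CFA, 233 for CFA in WT, 435 for the genotype average and 211 for the CFA average. DESeq2 gave 459, 465, 712, 86 (CFA in libraries labelled KO), 85 (interaction) and 519 (CFA average). No filter gave 31 for the interaction. The serotonin sum as covariate gave 107 for genotype in naive and 200 for CFA in WT. The oligodendrocyte sum gave 169 for genotype in naive, 59 for CFA in libraries labelled KO, 5 for the interaction and 601 for the CFA average. Without libraries 8 and 10 there were 172 for genotype in naive and 5 for the interaction. Leaving out 1 library at a time gave, whether or not the count moved that far, 135 to 296 (genotype in naive), 195 to 407 (genotype after CFA), 178 to 754 (CFA in WT), 16 to 42 (CFA, KO label), 5 to 27 (interaction), 505 to 734 (genotype average) and 204 to 493 (CFA average).

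Of the receptor genes, DESeq2 called 1 for genotype in naive. For CFA in WT, 0 were called after thinning, with either covariate, and 0 to 1 without single libraries. For the CFA average 1 (Htr2a) was called without a filter, by DESeq2, with the oligodendrocyte sum and without libraries 8 and 10, and 0 to 1 without single libraries.

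Log2 changes that turned, none called, were these. Thinned: Htr1b 0.024, Htr1d -0.12 and Htr3a -0.033 (genotype after CFA), Htr5a -0.018 (CFA in WT), Htr1f -0.0072 (CFA, KO label), Htr1d -0.10 (interaction) and Htr7 -0.00029 (CFA average). Serotonin sum: Htr1d 0.14 (genotype in naive), Htr1a -0.049, Htr1d -0.094 and Htr3a -0.15 (genotype after CFA), Htr1a 0.0018 (CFA in WT), Htr1d -0.24 and Htr2c 0.041 (interaction), Htr1d 0.025 (genotype average) and Htr1a 0.025 (CFA average). Oligodendrocyte sum: Htr2a -0.0028 (genotype in naive), Htr1d -0.0093 and Htr3a -0.12 (genotype after CFA) and Htr1a 0.027 (CFA average). Without libraries 8 and 10: Htr1d -0.058 and Htr3a -0.080 (genotype after CFA), Htr1d -0.018 (interaction) and Htr1b 0.014 (CFA average). Without single libraries the ranges crossed 0 for Htr1d -0.12 to 0.034, Htr1f -0.017 to 0.17, Htr4 -0.098 to 0.0036 and Htr7 -0.062 to 0.010 (genotype in naive), Htr1b -0.060 to 0.011, Htr1d -0.059 to 0.13 and Htr3a -0.61 to 0.38 (genotype after CFA), Htr5a -0.019 to 0.036 and Htr3a -0.074 to 0.23 (CFA in WT), Htr1d -0.019 to 0.18 and Htr2c -0.034 to 0.030 (interaction), Htr1d -0.056 to 0.040, Htr1f -0.077 to 0.016 and Htr3a -0.015 to 0.48 (genotype average), and Htr1a -0.062 to 0.029, Htr1b -0.036 to 3.3e-05 and Htr7 -0.0015 to 0.034 (CFA average).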
